A study of Rattus norvegicus with 10 samples.

Results

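The metabotropic glutamate receptors examined here were Grm2, Grm3, Grm4, Grm5, Grm7 and Grm8. They were chosen by name, with earlier results of these data known. Every probe set annotated to one of these symbols alone was taken, which gave 8 of the 8740 non-control probe sets. Grm7 had 3 probe sets and each other receptor had 1. Total RNA of rat brain was hybridised to 10 single-colour oligonucleotide arrays, with 1 array of cocaine-treated and 1 of saline-treated rats for each of 5 regions. The regions were the ventral tegmental area (VTA), the prefrontal cortex (PFC), the amygdala, and 2 parts of the striatum, the caudate putamen (CPU) and the nucleus accumbens. No strain, sex, age, dose or length of treatment, and no number of animals per array, is given in the sources used here. Cocaine blocks the reuptake of dopamine. The VTA holds dopamine neurons, whose axons reach the accumbens, PFC and amygdala among other regions.

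Metabotropic glutamate receptors signal through G proteins and, unlike the AMPA and NMDA receptors, form no ion channel. Group I receptors, to which Grm5 belongs, couple to Gq, phospholipase C and release of calcium from internal stores, and lie mainly at the edge of the postsynaptic density. Group II (Grm2 and Grm3) and group III (Grm4, Grm7 and Grm8) couple to Gi and Go, lower cyclic AMP, and in many synapses act as presynaptic brakes on glutamate release. In the striatum Grm5 is abundant in projection neurons, and the group II receptors are known for limiting glutamate release onto these cells.

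Values are a model-based expression index on a linear scale, whose level cannot be compared between probe sets. The median index of an array lay between 2208 and 2310. Over tested probe sets the cocaine and saline arrays of a region correlated with r between 0.939 in the amygdala and 0.991 in the CPU. The array least like the others was that of the PFC with cocaine, which had a median r of 0.910 and 226 exact zeros, and calls and cocaine changes that moved without it are given with and without it. No receptor value was 0. Marker sums of striatal projection neurons were highest in the striatum, of dopamine neurons in the VTA, and of excitatory neurons in the PFC and amygdala. The summed index of 6 striatal projection neuron markers was 92189 and 93158 in the CPU and 61733 and 63780 in the accumbens, against 12316 to 36408 elsewhere. That of 5 dopamine neuron markers was 25386 and 19050 in the VTA, against 10912 to 13104 elsewhere. Of these, 2 were called higher in the VTA, and Nr4a2 was left out of the sum for a value of 0. The sum of 6 excitatory neuron markers was 99516 and 102929 in the PFC and 73360 and 79539 in the amygdala, against 22264 to 48802 elsewhere. Hcrt, a hypothalamic peptide precursor, and 2 other hypothalamic markers summed to 13544 and 31793 in the VTA, against 9338 to 10832 elsewhere. This hypothalamic sum, which left out Pmch and Oxt for values of 0, differed between the arrays of the VTA by more than between any other pair. Choroid plexus markers, 4 in number, summed to 45386 and 58671 in the amygdala and to 26739 and 53697 in the CPU. Elsewhere their sum was 14723 to 20958.5.

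The receptors fell into 3 kinds. Grm3 and Grm5 were lower in the VTA than in the mean of the other 4 regions. Grm2, Grm4 and the brightest Grm7 probe set (X96790_at) lay in the upper 60% of probe sets by mean index but were called in no region. Grm8 and the other Grm7 probe sets (D16817_at and D16817_g_at) were near background. In no tested receptor probe set did cocaine over saline pass the test.

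**Figure D1:**
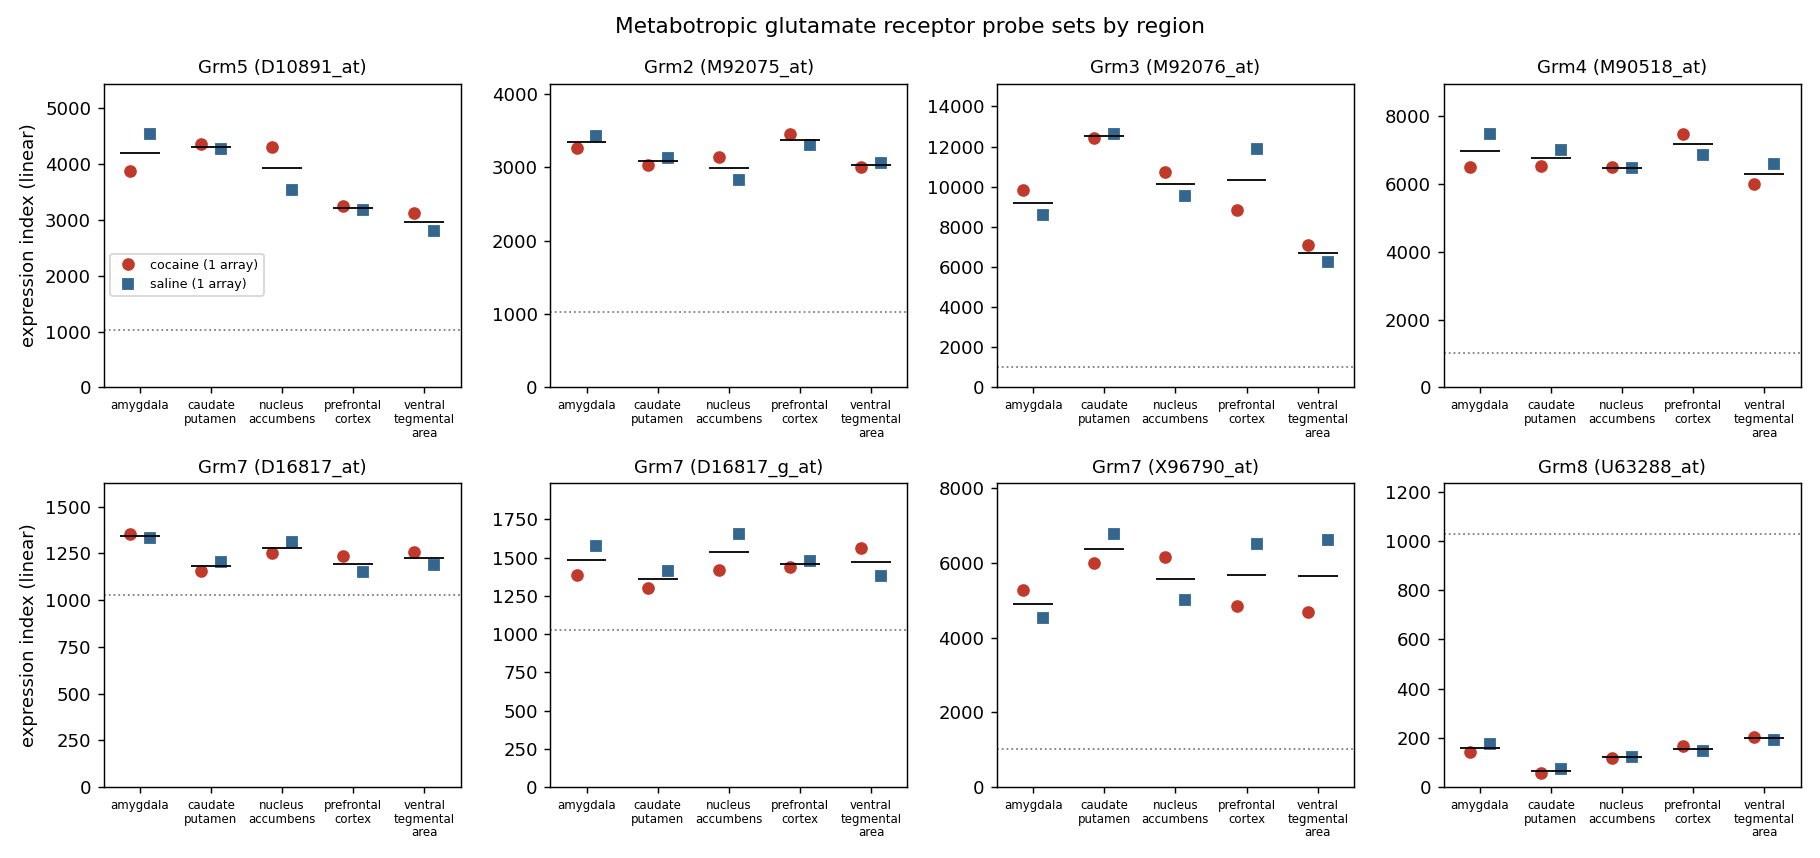
Expression index (vertical axis, linear, from 0) of each receptor probe set in the 5 regions (horizontal axis); red circles are cocaine arrays, blue squares saline arrays, 1 array each, and the black bar is their mean. The dotted line is the floor of 1028 below which values were not distinguished. Grm3 and Grm5 are lowest in the VTA, and all 10 Grm8 values lie below the floor.

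Near background were called the probe sets whose mean index lay in the lower 40% of all non-control probe sets, and these 3 of the 8 were not tested. Grm8, the group III receptor mGlu8, had indices between 57.7 and 204, all 10 below the floor of 1028, the 20th percentile of all values above 0. Its mean stood at percentile 0.618, and since values below the floor have no order, no region or treatment difference can be read from it. The Grm7 probe sets D16817_at and D16817_g_at had indices of 1152 to 1354 and of 1303 to 1655, at percentiles 25.3 and 31.2.

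As an empirical measure of background, the 73 probe sets of 37 genes of other organs, such as liver, pancreas, muscle and testis, had a median of their mean indices of 1586, with quartiles of 830 and 2668. Of these, 31 passed the same filter, so passing it does not show that a transcript was present. The highest of their means was 6919. The means of Grm2 (3163), Grm5 (3723), Grm7 on X96790_at (5639) and Grm4 (6747) lay below it, and that of Grm3 (9777) above it. Since levels cannot be compared between probe sets, presence of these transcripts was not tested. Grm6, the receptor of retinal bipolar cells and no member of the set, was looked at after its values were known. It had indices of 1922 to 2192 with no array standing apart, and it too passed the filter.

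Of the 8 probe sets, 5 passed the filter, standing for 5 of the 6 receptors: Grm5, Grm2, Grm3, Grm4 and Grm7. Their mean indices stood at percentiles 70.9, 64.2, 93.2, 88.3 and 84.4. Regions were compared with the cocaine and saline array of each region as its repeats and treatment as a term, so an SD of a region (n = 2) includes any difference between treatments. The labels do not say whether arrays came from separate animals, and the p-values then measure only the spread between these samples, which may be technical in part.

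Grm3 encodes mGlu3, a group II receptor of neurons and astrocytes. Its index was 7094 with cocaine and 6252 with saline in the VTA, against 12430 and 12611 in the CPU. In the other regions it was 10742 and 9537 in the accumbens, 9812 and 8600 in the amygdala, and 8826 and 11870 in the PFC. Both arrays of the VTA lay below all other arrays, and both of the CPU lay above all others. The accumbens, prefrontal and amygdala values overlapped and did not differ beyond their spread.

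The mean of the VTA, 6673 ± 596 (SD, n = 2), was 1.57-fold below the mean of the other 4 regions (log2 difference -0.65 ± 0.13 SE, 95% interval -0.94 to -0.36, limma adjusted p = 0.0148). This fold compares geometric means, as do all folds between regions here. In the CPU the mean was 12521 ± 128 (SD, n = 2), with a log2 difference of 0.49 ± 0.13 (SE) that did not pass (limma adjusted p = 0.0818). It passed, at 0.42 to 0.56, when any 1 array of the PFC or of the amygdala was left out. Without the prefrontal cocaine array the difference of the VTA was -0.72 (limma adjusted p = 0.00196) and that of the CPU, 0.42, passed (limma adjusted p = 0.0360). The call in the VTA was lost without either array of that region (limma adjusted p = 0.118 and 0.213 without the cocaine and the saline array), and narrowly without either array of the CPU (0.0509 and 0.0524).

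Grm5 encodes mGlu5, the group I receptor that is linked through Homer proteins to calcium stores. Its index was 3118 with cocaine and 2801 with saline in the VTA, and 3253 and 3184 in the PFC. It was 4353 and 4262 in the CPU, 4299 and 3544 in the accumbens, and 3880 and 4535 in the amygdala. The VTA lay below all other arrays and the PFC next above it, while the striatal regions and amygdala overlapped.

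The mean of the VTA, 2960 ± 224 (SD, n = 2), was 1.31-fold below the mean of the other 4 (log2 difference -0.39 ± 0.10 SE, 95% interval -0.63 to -0.16, limma adjusted p = 0.0454). This call was near the threshold. It was lost without any 1 of the 8 arrays outside the amygdala (limma adjusted p from 0.0619 to 0.368), the prefrontal cocaine array included (0.0668). In the CPU the log2 difference was 0.29 ± 0.10 (SE), in the amygdala 0.24 ± 0.10 (SE) and in the PFC -0.24 ± 0.10 (SE), and none of these passed (limma adjusted p = 0.208, 0.550 and 0.287).

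Grm3 and Grm5 were 2 of 5 tested receptor probe sets called in the VTA, both lower. Of all 5239 probe sets tested there, 11.0% were called, 7.79% higher and 3.23% lower. The median log2 difference of the 5 was -0.12, beside 0.02 over all probe sets tested. In the other regions 0 of 5 were called in limma. Of all probe sets, 0.610% were called in the amygdala, 4.08% in the CPU, 0.534% in the accumbens and 5.04% in the PFC. An unadjusted p under 0.05 was reached there by Grm5 in the amygdala, CPU and PFC and by Grm3 in the CPU. Of all probe sets, 468 of 5242 reached it in the amygdala and 825 of 5242 in the CPU. In the accumbens 274 of 5244 did so, and in the PFC 881 of 5239. In a single limma F test over the 5 regions 0 of 5 passed, with 9.71% of 4894 probe sets called. Grm3 and Grm5 had unadjusted p-values of 0.00514 and 0.0102 in it, and 1068 of the 4894 had one under 0.05. Grm3 was just above the threshold (limma adjusted p = 0.0515), Grm5 had 0.0792 and the other 3 had 0.700 to 0.835. Grm3 passed this F test without either prefrontal array (limma adjusted p = 0.00952 without the cocaine array and 0.0108 without the saline array) or either amygdala array, and Grm5 without either amygdala array.

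**Figure D2:**
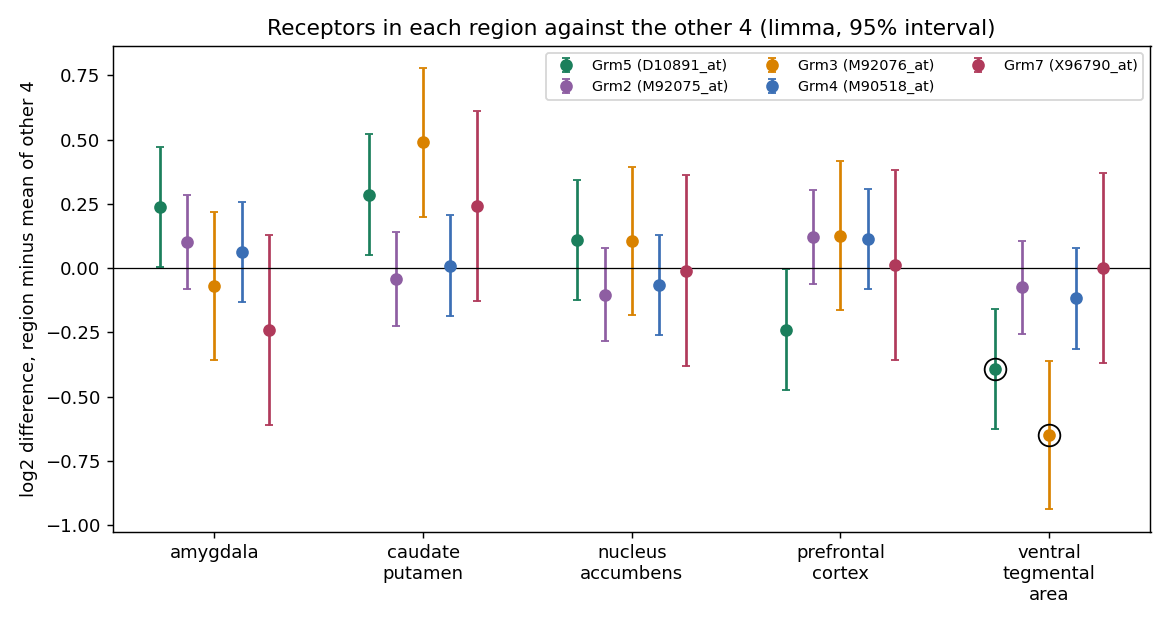
Log2 difference of each region from the mean of the other 4 (vertical axis) for the 5 tested receptor probe sets, as points with 95% intervals from limma over 10 arrays; regions run along the horizontal axis. Black rings mark the 2 calls, Grm3 at -0.65 and Grm5 at -0.39 in the VTA, while the intervals of Grm2, Grm4 and Grm7 include 0 in every region.

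In bulk tissue, fewer cells of a type and less RNA per cell cannot be told apart. Of the cell type markers, 5 astrocyte genes (S100b, Slc1a2, Slc1a3, Aldoc and Glul) summed to 122562 and 118256 in the VTA. On the other 8 arrays the sum was 104446 to 124296. The brightest genes weigh most in such a sum, and of the 5 genes 1 was called higher in the VTA and 0 lower. Of 8 listed astrocyte markers 7 were on the array, and Aqp4 and Gja1 were left out of the sum because an array listed them at 0. Striatal projection neuron markers were called lower in the VTA in 5 of 6 and excitatory neuron markers in 3 of 6, beside 3.23% of all probe sets. Oligodendrocyte markers were called higher there in 4 of 5, beside 7.79% of all. The sum of these 5 was not high in the VTA alone. It was 115159 and 99690 there and 109332 and 118241 in the CPU, against 64407 to 85113 elsewhere. The part of these cell types in the Grm3 and Grm5 differences was not tested.

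Grm2 encodes mGlu2, the other group II receptor, known as a presynaptic autoreceptor. Its index was 3449 with cocaine and 3305 with saline in the PFC, 3261 and 3419 in the amygdala, and 3036 and 3133 in the CPU. It was 3005 and 3052 in the VTA and 3142 and 2832 in the accumbens. Both prefrontal and both amygdala values lay above the other 6, but the highest array was 1.22-fold above the lowest, against a median of 1.40-fold over 4894 tested probe sets with a value on every array.

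Grm4 encodes mGlu4, a group III receptor. It had 7474 with cocaine and 6876 with saline in the PFC, 6501 and 7469 in the amygdala, and 6548 and 6997 in the CPU. In the accumbens it had 6500 and 6481 and in the VTA 6019 and 6606. The highest array was 1.24-fold above the lowest, and of neighbours in the order of means the CPU and accumbens did not overlap. Both PFC values also lay above those of the accumbens and of the VTA.

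Grm7 encodes mGlu7, a group III receptor of the presynaptic active zone. On X96790_at it had 5997 with cocaine and 6773 with saline in the CPU, 4839 and 6516 in the PFC, and 4699 and 6614 in the VTA. In the accumbens it had 6156 and 5001, and in the amygdala 5269 and 4523. The arrays of a region differed by up to 1.41-fold, and neighbouring regions overlapped throughout the order. Over the 5 contrasts, the log2 differences of Grm2, Grm4 and Grm7 lay between -0.24 and 0.24, with SEs of 0.08 to 0.16, and the 95% intervals included 0 for all 15.

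The Grm7 probe sets did not vary together. Across the 10 arrays X96790_at correlated with r of -0.71 with D16817_at and -0.61 with D16817_g_at, while these correlated with each other at 0.52. These correlations describe arrays that share 5 regions and are not tests. Which stretch of the Grm7 transcript each probe set reads was not analysed here, and D16817_at and D16817_g_at lay near background.

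Cocaine was then set against saline with the 5 regions as repeats. The log2 changes were 0.05 ± 0.08 for Grm5, 0.02 ± 0.06 for Grm2, 0.02 ± 0.10 for Grm3, -0.06 ± 0.07 for Grm4 and -0.12 ± 0.13 for Grm7 (SE). In limma 0 of 5 receptor probe sets passed, each with an adjusted p of 0.9999, and 0 had an unadjusted p under 0.05. Over all 5244 probe sets 0% were called and 69 had an unadjusted p under 0.05. The 95% intervals of the folds ran from 0.911 to 1.18 for Grm5, 0.913 to 1.12 for Grm2, 0.863 to 1.19 for Grm3, 0.860 to 1.07 for Grm4 and 0.752 to 1.13 for Grm7. Without the PFC pair, whose cocaine array stood apart, the log2 change of Grm7 was -0.04 and that of Grm4 -0.11 (both limma adjusted p = 0.99999). A change shared by the regions and within these bounds could not be told from none. The intervals are not adjusted for the number of probe sets tested, so they are not a limit of detection.

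**Figure D3:**
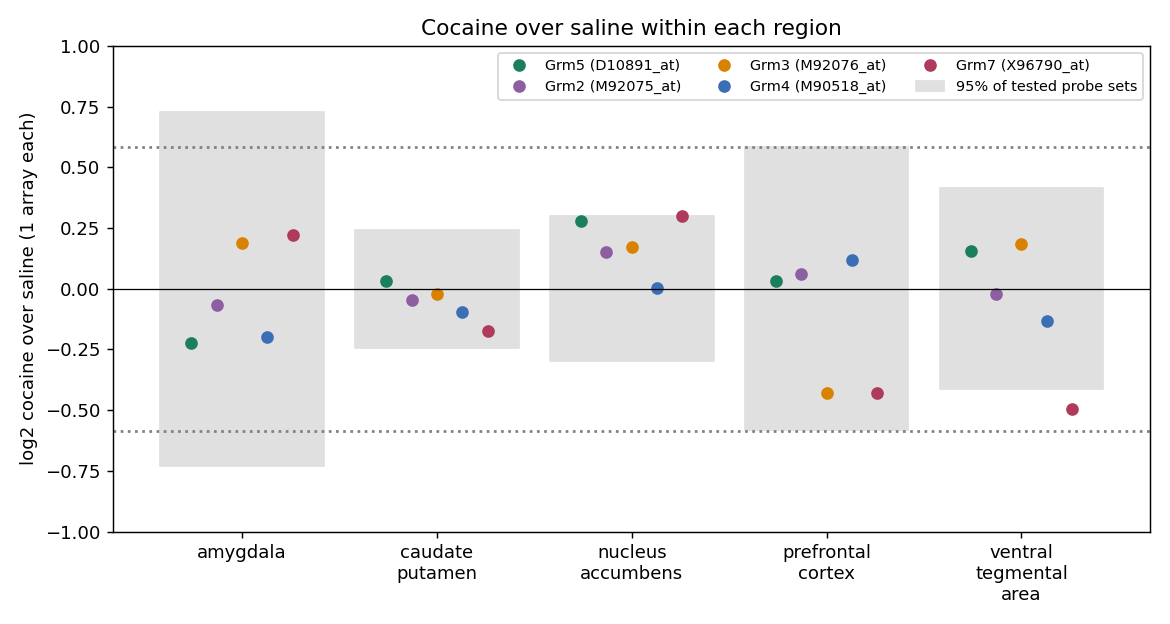
Log2 ratio of the cocaine over the saline array (vertical axis) in each region (horizontal axis) for the 5 tested receptor probe sets, 1 array each and so without error bars. Grey bands span the size of ratio that 95% of tested probe sets stayed within and dotted lines mark 1.5-fold. All 5 receptors lie at or above 0 in the accumbens, and Grm7 lies below the band in the VTA.

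Within a region there was 1 array per treatment and no test. None of the 25 ratios reached 1.5-fold, which 8.89% of tested probe sets reached in the amygdala, 0.153% in the CPU, 0.229% in the accumbens, 4.92% in the PFC and 1.65% in the VTA. Grm7, on X96790_at, had log2 ratios of -0.49 in the VTA, -0.43 in the PFC and -0.18 in the CPU but 0.30 in the accumbens and 0.22 in the amygdala. In size its ratio in the VTA exceeded that of 97.0% of tested probe sets there, and its ratio in the accumbens 95.1%. The near-background Grm7 probe sets had the opposite sign in both of these regions. D16817_at had log2 ratios of 0.08 in the VTA and -0.07 in the accumbens, and D16817_g_at had 0.18 and -0.22. Each had the opposite sign to X96790_at in 3 of 5 regions.

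Grm3 had a log2 ratio of -0.43 in the PFC, where the cocaine array stood apart, but 0.19 in the amygdala, 0.18 in the VTA, 0.17 in the accumbens and -0.02 in the CPU. Without the prefrontal pair its change across regions was 0.13 (limma adjusted p = 0.99999). Grm5 had 0.28 in the accumbens and 0.15 in the VTA, 0.03 in both the CPU and the PFC, and -0.23 in the amygdala. Its accumbens ratio exceeded in size that of 93.7% of tested probe sets in this quiet pair. Grm2 and Grm4 stayed within -0.20 and 0.15 in all regions.

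The accumbens was the region in which all 5 receptors had a ratio above 0, from 0.00 for Grm4 to 0.30 for Grm7, as did 40.6% of all tested probe sets. This held under median scaling and quantile normalization, where 49.0% and 50.1% of all tested probe sets lay above 0. In the CPU 4 of 5 lay below 0, or 3 of 5 under quantile normalization, and in the PFC 3 of 5 lay above 0, but 1 of 5 under median scaling and 2 of 5 under quantile normalization. Whether the striatal ratios differ from those of the other 3 regions was tested as an interaction. The differences lay between 0.03 for Grm4 and 0.30 for Grm7, none passed (each limma adjusted p = 0.9997, 0 of 5 with an unadjusted p under 0.05), and 0% of 5238 probe sets were called, with 17 at an unadjusted p under 0.05. Without the amygdala pair 212 probe sets were called, and 0 of 5 receptors. The Grm7 difference rested on single pairs: it was 0.52 without the amygdala pair (limma adjusted p = 0.0944) and 0.53 without the CPU pair, but 0.06 without the accumbens pair, 0.20 without the PFC pair and 0.17 without the VTA pair (limma adjusted p between 0.9992 and 0.9999 in these 4).

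Genes that act with these receptors were read from the same fits. Their list was chosen with earlier results of these data known, so the counts below are descriptive and do not test for an excess. Of 70 listed symbols 51 were on the array and 42 passed the filter, each by its brightest probe set. In the VTA 3 were higher and 4 lower, beside 7.79% and 3.23% of all probe sets. In the CPU 4 were higher and 1 lower, beside 1.74% and 2.35% of all. In the PFC 1 was higher and 2 lower, beside 1.36% and 3.68% of all. In limma 0 were called in the amygdala, in the accumbens and for cocaine over saline, where 6, 8 and 0 had an unadjusted p under 0.05. Of all probe sets, 468 of 5242, 274 of 5244 and 69 of 5244 had such a p in these comparisons. In the limma F test over the 5 regions 7 of 42 were called, beside 9.71% of all probe sets: Itpr1, Homer1, Plcb4, Dgkz, Adcy5, Ppp1cc and Glud1. Without the PFC cocaine array all 3 PFC calls were lost, those of Dgkz, Adcy5 and Glud1 (limma adjusted p = 0.0764, 0.406 and 0.438). Also lost without it were Gnb1 in the VTA (0.0559), Ppp1cc in the CPU (0.0515), and Plcb4 and Glud1 in the F test (0.0554 and 0.0856).

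Partner calls were checked without the prefrontal cocaine array only. How far they rest on single arrays of the VTA or CPU was not tested. Itpr1 and Homer1, partners of group I signalling, stood lowest in the VTA. Itpr1, the receptor that releases calcium from internal stores, had 2172 with cocaine and 2334 with saline there, against 11617 and 11066 in the CPU and 5777 to 7601 in the remaining regions. It was 3.35-fold lower in the VTA and 2.25-fold higher in the CPU than the mean of the other 4 (limma adjusted p = 3.3e-05 and 0.000256). Homer1, the scaffold that binds the tail of mGlu5 and also Itpr1, had 1905 and 1775 in the VTA and 5934 and 6108 in the CPU. It was 2.48-fold lower and 1.78-fold higher (limma adjusted p = 0.000729 and 0.0109). For both genes the arrays of these regions lay outside the range of all others.

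The other group I effectors went both ways. Plcb4, a phospholipase C that Gq activates, was 1.35-fold higher in the VTA (limma adjusted p = 0.0178). Dgkz, which removes the diacylglycerol that phospholipase C makes, was 1.35-fold lower there and 1.40-fold higher in the PFC (limma adjusted p = 0.0169 and 0.0207). Of the other 5 tested, none passed in a region, and Plcb1 had the largest difference in the VTA, -0.69 ± 0.24 on the log2 scale (SE, limma adjusted p = 0.132).

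Among 6 tested effectors of groups II and III, Adcy5, the adenylyl cyclase of striatal neurons, was 1.62-fold higher in the CPU, 1.37-fold lower in the VTA and 1.31-fold lower in the PFC (limma adjusted p = 0.00416, 0.0131 and 0.0425). Adcy2 was 1.30-fold lower in the CPU (limma adjusted p = 0.0291). Of 8 tested G protein subunits, Gnb1 alone was called, 1.52-fold higher in the VTA (limma adjusted p = 0.0363). Among scaffolds and regulators, Ppp1cc, a catalytic subunit of protein phosphatase that binds mGlu7, was 1.45-fold higher in the CPU (limma adjusted p = 0.0479). The remaining 12 of 14, among them Homer2, Homer3, Shank1 and the receptor kinases, were not called. Glud1, the mitochondrial glutamate dehydrogenase, was 1.54-fold higher in the VTA and 1.5-fold lower in the PFC (limma adjusted p = 0.0146 and 0.0342). The transporters Slc1a1, Slc1a2 and Slc1a3, which clear glutamate from the synapse, were not called in any region.

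**Figure D4:**
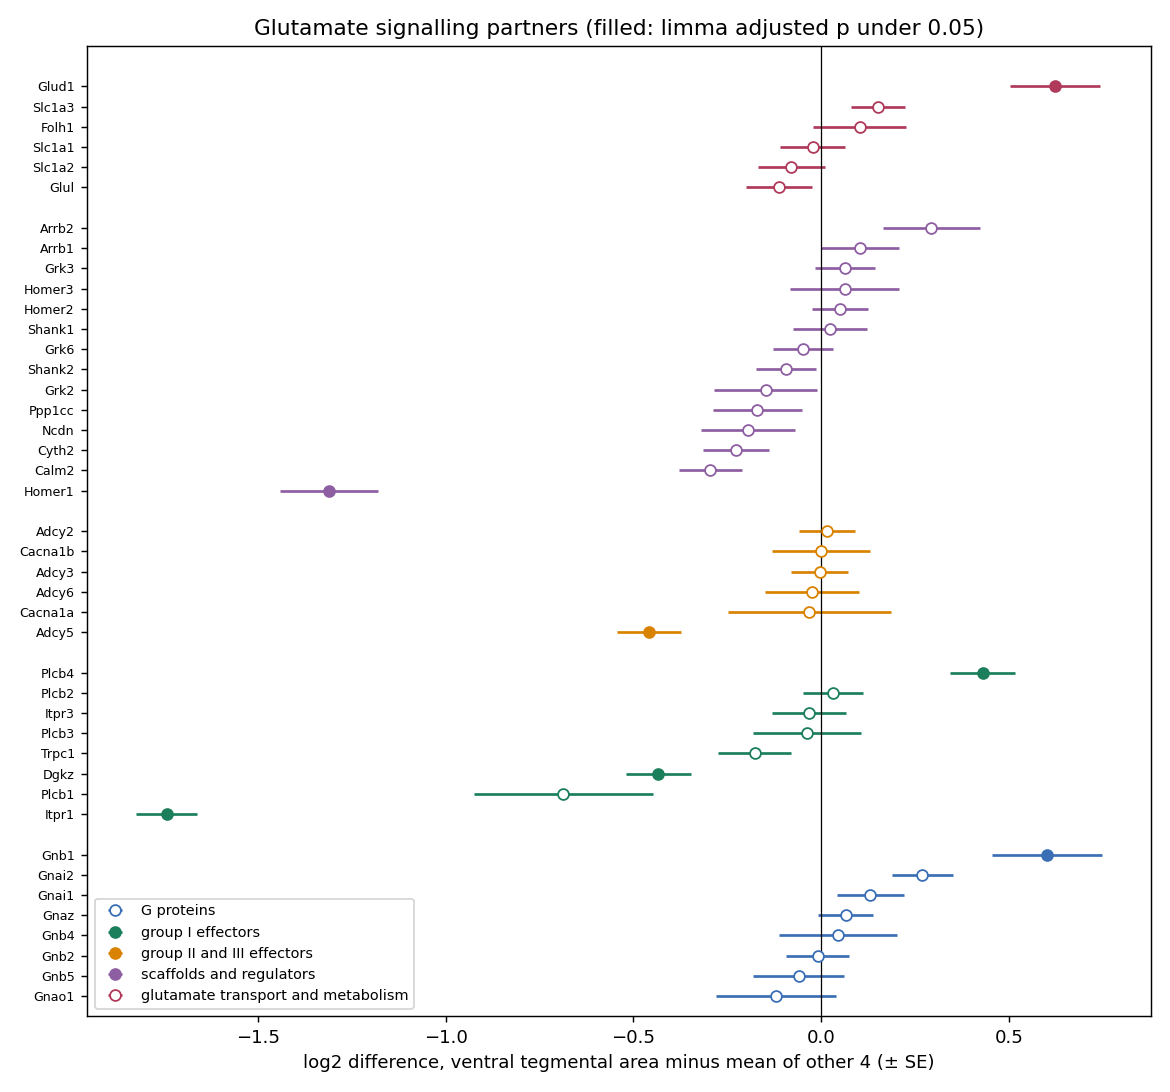
Log2 difference of the VTA from the mean of the other 4 regions (horizontal axis, ± SE) for the 42 tested partner genes (vertical axis, by role); filled points passed the adjusted threshold. Itpr1 at -1.74 and Homer1 at -1.31 lie farthest to the left, and Glud1 and Gnb1 farthest to the right.

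The genes most like each receptor were taken as the 3 probe sets with the highest Pearson r of log2 index over the 10 arrays, among 4051 candidates with 1 symbol. For Grm3 they were both Klf9 probe sets (r = 0.98 and 0.97), a transcription factor gene induced by glucocorticoid and thyroid hormones, and a Homer1 probe set other than the brightest (r = 0.95). The brighter Klf9 probe set had 4491 with cocaine and 3658 with saline in the VTA and 7637 and 7716 in the CPU. Like Grm3, it had a lower cocaine than saline value in the PFC, 5351 against 7387.

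For Grm5 they were Camkv (r = 0.91), Wipf3 (0.88) and Arpp21 (0.85), the last a phosphoprotein gene of striatal neurons. For Grm7 on X96790_at they were Eloc, Pnoc and Hbp1 (r = 0.89, 0.89 and 0.88). Pou2f3 was the closest to both Grm2 and Grm4 (r = 0.91 and 0.90), and Grm2 and Grm4 correlated with each other at 0.76. The others near Grm2 were Htt and Cdc34 (r = 0.86 and 0.85), and those near Grm4 were Adam18, a testis gene, and Foxj1 (0.89 and 0.88). Among the receptors Grm3 and Grm5 correlated at 0.63, and the other 8 pairs lay between -0.17 and 0.40. These correlations run over arrays that share 5 regions and 10 scans, and the highest of so many candidates is high in part by selection.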

How the data were processed

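The authors' values are linear intensities: per the labels, a dChip expression index, which fits a model to the probes of a set. Its version, model and array scaling are not stated there. Groups came from the sample titles. The 59 control probe sets of 8799 were left out. The annotation gave 7006 of the other 8740 a single symbol, and all 8 receptor probe sets kept theirs in the current RefSeq table (GRCr8).

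The 593 exact zeros were treated as missing. Values below the 20th percentile of those above 0 were raised to it before log2, and limma tested the 5244 brightest (upper 60% by mean index), in version 3.58.1 and R 4.3.3. An intensity trend was used, with Benjamini-Hochberg adjustment over all tested probe sets and a threshold of 0.05. Cocaine over saline had region as a block (4 residual degrees of freedom), region contrasts had treatment as a term (4), and the interaction had region as a block. The fits were tested on simulated data. The number of arrays limits all precision.

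All receptor probe sets are named, together with partner genes called in a comparison, at most 4 others of a role, and the 3 most like probe sets of each tested receptor. Members and lists were chosen with earlier results of these data known. The alternatives changed zeros, floor, scaling, filter, trend, block and arrays.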

Additional observations from a re-analysis of the deposited data

Results flagged for a closer look

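The Grm7 probe set D16817_at stood out because its log2 ratio of cocaine over saline lay below 0 in both striatal regions, -0.06 in the CPU and -0.07 in the accumbens, and above 0 in the other 3, at 0.03 in the amygdala, 0.10 in the PFC and 0.08 in the VTA. The mean ratios of the classes differed by -0.134. This probe set lay near background and was not tested with the others. The next fit uses the same ratios that flagged it, so its unadjusted p gives no independent support. In the limma fit with no filter on low values the interaction was -0.13 ± 0.03 (SE, unadjusted p = 0.00804, adjusted p = 1), so it did not pass. On the brightest Grm7 probe set the difference ran the other way, at 0.30. Of the 7 receptor probe sets with values above the floor, none had a region whose ratio stood apart from the other 4 by Dixon's criterion, whose critical value for 5 values is 0.71.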

How the results depend on the processing

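Of 5 receptor changes with cocaine, 0 passed under any of 12 alternative settings (60 values over the 5 receptors, lowest limma adjusted p = 0.696). With a region pair left out, the log2 change ranged from -0.00226 to 0.124 for Grm5, from -0.0187 to 0.0359 for Grm2, from -0.0236 to 0.131 for Grm3, from -0.106 to -0.0263 for Grm4 and from -0.219 to -0.0212 for Grm7. The striatal interaction ranged likewise from -0.0356 to 0.160 for Grm2, -0.111 to 0.198 for Grm3, -0.0388 to 0.122 for Grm4, 0.0438 to 0.292 for Grm5 and 0.0585 to 0.534 for Grm7. The cause of these sign changes was not tested. The 2 region calls became 1 with zeros raised to the floor, where Grm5 was lost (limma adjusted p = 0.0735), and 0 with no filter, where 8740 probe sets entered and Grm3 and Grm5 had 0.0828 and 0.125. They ranged from 0 to 4 when single arrays were left out. Both held under the lower floor, median scaling, quantile normalization and no trend. The F test called 1 receptor, Grm3, under quantile normalization (limma adjusted p = 0.0387) and 0 to 2 without single arrays. Of 400 alternative region contrasts of the 5 receptors 24 changed sign, 0 of them of a called contrast. Over all probe sets, leaving out arrays moved the calls to between 118 and 959 in the VTA (577), 153 and 1153 in the F test (475), 22 and 505 in the CPU (214), 54 and 649 in the PFC (264), 0 and 382 in the amygdala (32) and 3 and 74 in the accumbens (28). With no filter they were 350, 196, 128, 74, 3 and 10. With zeros at the floor they were 283 in the F test, 149 in the PFC, 9 in the amygdala and 18 in the accumbens, and median scaling gave 17 in the amygdala. Quantile normalization moved the split in the VTA, 408 higher and 169 lower, to 229 and 191.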
